A study of Mus musculus with 6 samples.

Results

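The genes described here are those of the matrix proteases and their inhibitors: the matrix metalloproteinases (Mmp), the secreted proteases with thrombospondin repeats (Adamts), their relatives without a protease domain (Adamtsl) and the tissue inhibitors of metalloproteinases (Timp). Members were all protein-coding RefSeq genes of the mouse build GRCm38 with these symbols, which gave 51 of 21887 genes: 23 Mmp, 19 Adamts, 5 Adamtsl and 4 Timp genes. Accessible chromatin of cultured mouse dermal fibroblasts, which make and maintain the connective tissue of skin, had been profiled by ATAC-seq, an assay that marks open DNA by the insertion of adapters with Tn5 transposase. The compared cells were Lap2alpha KO (3 libraries) and wildtype (WT, 3 libraries). Lap2alpha, a product of the gene Tmpo, belongs to the lamina-associated polypeptide 2 proteins, and this isoform is found in the nuclear interior, where it interacts with A-type lamins. The labels give no age, sex or strain, neither the KO allele nor the way the cells were established, and do not say whether the libraries of a genotype came from separate animals or cultures.

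The libraries of a genotype were represented by 1 combined peak list, with 98072 peaks in KO and 106132 in WT. There was therefore no spread between replicates and no test between genotypes, and the depth of the libraries is unknown. A site listed for 1 genotype may have fallen just short of the threshold in the other, and a difference in the share of cells with an open site cannot be told apart from a difference in openness per cell. The promoter of Tmpo had a peak in both lists, which does not check the knockout, since Lap2alpha is a splice product of that gene. Among marker genes, the promoters of 9 of 10 dermal fibroblast genes had a peak in both lists (Lum in neither), and those of 5 keratinocyte and 5 skeletal muscle genes in neither. Promoters were open in both lists for 2 of 5 leukocyte genes (Cd68, Csf1r), 1 of 5 endothelial genes (Cdh5) and 3 of 5 cartilage genes (Col2a1, Sox9, Comp). Of all protein-coding genes, 52.9% had a promoter peak in both lists. In these marker lists 0 promoters were called in KO only and 0 in WT only. Among all genes these calls were also rare, at 0.937% and 1.85%, so 0 in lists this short says little about the markers.

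Matrix metalloproteinases and ADAMTS proteases are zinc enzymes that cleave collagens, proteoglycans and other proteins of the extracellular matrix, and most are made as inactive precursors. Timp proteins bind their active sites and block them. Fibroblasts are a main source of both in skin, where the balance between protease and inhibitor sets how matrix is turned over during growth and wound repair. Transcription of several secreted Mmp genes is known to respond to AP-1, a Jun and Fos transcription factor whose site lies close to a TATA box in their promoters.

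A peak was assigned to a gene when its summit lay within the gene or within 20 kb of either end, and was called shared when at least 1 bp of it overlapped a peak of the other genotype. The windows of the 51 genes held 375 KO peaks, of which 328 were shared and 47 were KO-only, and 378 WT peaks, of which 328 were shared and 50 were WT-only. KO-only peaks were thus 12.5% of the KO peaks, beside 12.2% in the windows of all protein-coding genes and 13.4% in the whole list. WT-only peaks were 13.2% of the WT peaks, beside 18.5% in the windows of all protein-coding genes and 20.4% in the whole list. The shared part was 87.5% in KO (exact binomial 95% interval 83.7 to 90.6) and 86.8% in WT (82.9 to 90.0), where the intervals cover counting error only. In lists of equal length, the 73554 peaks of highest signal in each, the windows held 47 KO-only and 32 WT-only peaks, so which genotype had more depended on this choice. The equal-length count was made for the 51 genes only, so it cannot be told apart from a shift of the whole lists.

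Genotype-only peaks at these genes were weak and narrow, as they were in the whole lists. The deposited signal of a peak is an area that grows with its length, and it is given here as a percentile within the peak's own list, from 0 for the weakest to 100 for the strongest. Percentiles from lists of different length rank peaks and show no change in accessibility. KO-only peaks had a median percentile of 16.4 and a median width of 272 bp, and WT-only peaks 14.3 and 209 bp. In the whole lists these medians were 16.5 and 245 bp for KO-only peaks, and 17.8 and 231 bp for WT-only peaks. Shared peaks had medians of 60.8 and 596 bp in KO, and 60.7 and 598 bp in WT. In the upper 50% of their list there were 8 KO-only peaks (17% of them, beside 8.97% in the whole list) and 5 WT-only peaks (10%, beside 8.53%). In the windows of all protein-coding genes these shares were 8.0% and 7.2%. The KO share was thus above both, but rests on 8 peaks. The highest peaks were at percentile 68.4 in Adamtsl3 (KO-only) and at 74.3 in Mmp16 (WT-only). No peak of the other list lay within 1 kb of 33 KO-only and 37 WT-only peaks.

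Most of the 51 genes, like most genes of the genome, had nearly equal numbers of KO-only and WT-only peaks. The counts differed by at most 1 at 40 genes (78.4%, beside 74.1% of all genes). KO-only peaks outnumbered WT-only peaks at 14 genes (27.5%, beside 19.2% of all genes), WT-only peaks outnumbered KO-only peaks at 21 (41.2%, beside 37.4%) and the numbers were equal at 16 (31.4%, beside 43.3%). A difference of at least 2 towards KO was found at 5 genes, Adamts12, Adamtsl3, Timp3, Adamts10 and Timp1 (9.8%, beside 7.54% of all genes). A difference of at least 2 towards WT was found at 6 genes, Adamtsl1, Mmp16, Adamts5, Adamts16, Mmp23 and Mmp15 (11.8%, beside 18.4% of all genes). The difference of Adamts12, Adamtsl1 and Adamtsl3 stayed at least 2 in the same direction under all 8 alternative settings tried, and those of the other 8 genes did not: with a stricter threshold on the summit p (−log10 p of at least 9.981 in both lists) it was 0 at 5 of them (Adamts5, Mmp23, Mmp15, Timp3 and Timp1). Adamts12 alone held 23.4% of the KO-only peaks and Adamtsl1 alone 16% of the WT-only peaks, and without the windows of these genes 36 KO-only and 42 WT-only peaks were left.

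**Figure D1:**
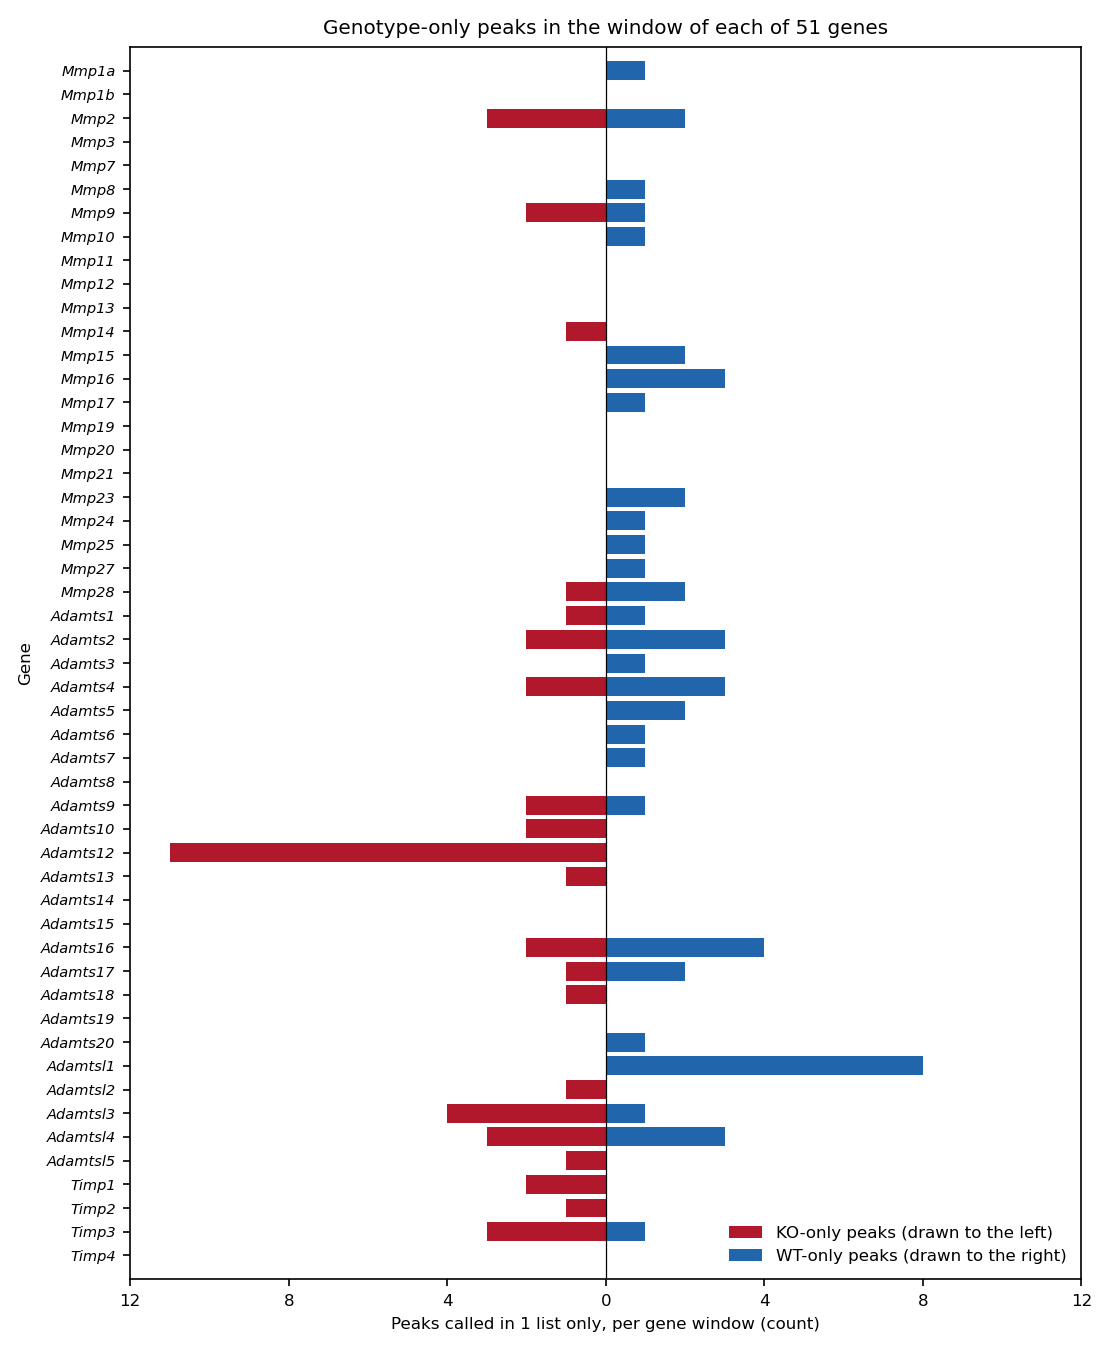
Number of KO-only peaks (red, to the left) and WT-only peaks (blue, to the right) in the window of each of the 51 genes. The longest bars are the 11 KO-only peaks of Adamts12 and the 8 WT-only peaks of Adamtsl1, while most genes have 0 to 3 on either side.

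The secreted collagenase genes and the stromelysin genes Mmp3 and Mmp10 lie side by side in a cluster of 10 Mmp genes at chr9:7272514-7699585, over 427 kb with 0 other protein-coding genes. It holds the interstitial collagenase genes Mmp1a, Mmp1b, Mmp8 and Mmp13, the stromelysin genes Mmp3 and Mmp10, the macrophage elastase gene Mmp12, the matrilysin gene Mmp7, the tooth enamel protease gene Mmp20, and Mmp27. In this span 4 KO peaks and 6 WT peaks were called. All 4 KO peaks overlapped a WT peak, and 2 of the WT peaks were WT-only, at chr9:7490295-7490447 (percentile 1.40) and chr9:7572201-7572658 (21.2). The strongest peak, in both lists, ran from 7594757 to 7595933 in KO (percentile 85.9) and from 7594729 to 7595749 in WT (87.2), in the 20 kb beyond the upper end of Mmp27.

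The part of the cluster with Mmp3, a broad stromelysin of activated fibroblasts, held no peak in either list. In KO 338 kb separated the peaks on either side of Mmp3, a gap with 6 of the Mmp genes: Mmp13, Mmp12, Mmp1b, Mmp3, Mmp1a and Mmp10. In WT it was 263 kb with 5 of them, all but Mmp10, and ended at the weak WT-only peak at percentile 1.40. Among the 51 genes, 6 had no peak of either list in their window, namely Mmp3, Mmp12, Mmp13, Mmp1b and Mmp20 of this cluster and Adamts19 (15.2% of all genes have none). In the 10 Mb block of the chromosome around the cluster, KO had 69.4% of the WT peak number, 127 against 183 peaks. The whole lists held 98072 KO and 106132 WT peaks. Mmp1a and Mmp1b are related paralogues, and whether reads that match both were kept is not given in the sources used here.

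**Figure D2:**
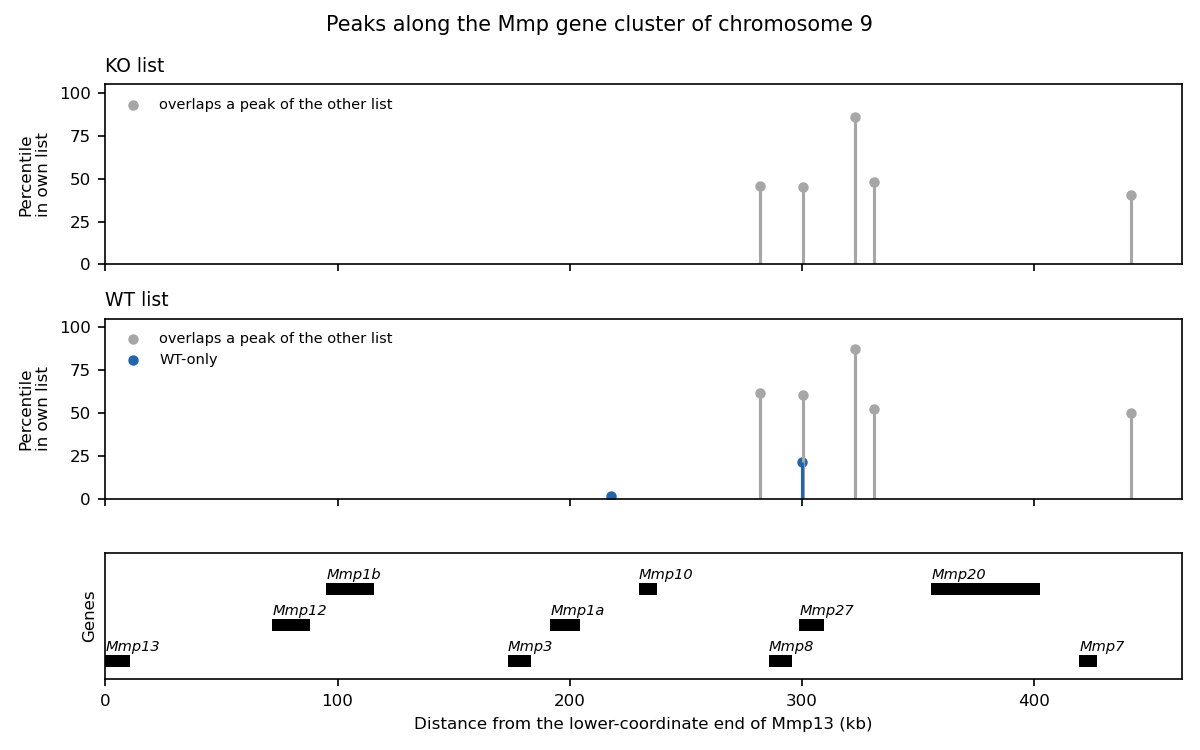
Signal percentile of each peak within its own list along the Mmp gene cluster of chromosome 9 (vertical axis 0 to 100, horizontal axis in kb from the lower end of Mmp13), KO above WT, with the genes as black bars underneath. Shared peaks (grey) start near Mmp8, and the WT-only peaks (blue) are at percentiles 1.40 and 21.2.

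Most promoters of the cluster carry an AP-1 motif, and none of its 10 genes had a promoter peak in either list. The sequences of 6 of them are shown as the 120 bases before the start listed by RefSeq for GRCm38.p6, read 5′ to 3′ on the gene's strand. Capitals mark the AP-1 motif TGANTCA, where N is any base, and the TATA box motif TATAAA.
Mmp1a, chr9:7464021-7464140, plus strand: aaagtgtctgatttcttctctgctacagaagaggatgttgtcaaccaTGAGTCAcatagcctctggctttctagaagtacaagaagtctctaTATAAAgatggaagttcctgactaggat
Mmp1b, chr9:7388027-7388146, minus strand: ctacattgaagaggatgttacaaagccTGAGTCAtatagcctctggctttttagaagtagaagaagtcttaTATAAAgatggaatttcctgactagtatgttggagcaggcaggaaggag
Mmp3, chr9:7445702-7445821, plus strand: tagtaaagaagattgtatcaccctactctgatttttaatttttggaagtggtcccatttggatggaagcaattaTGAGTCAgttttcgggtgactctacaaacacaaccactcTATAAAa
Mmp10, chr9:7502222-7502341, plus strand: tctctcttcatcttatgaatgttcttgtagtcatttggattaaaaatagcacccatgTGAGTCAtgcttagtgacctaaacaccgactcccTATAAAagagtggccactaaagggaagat
Mmp13, chr9:7272394-7272513, plus strand: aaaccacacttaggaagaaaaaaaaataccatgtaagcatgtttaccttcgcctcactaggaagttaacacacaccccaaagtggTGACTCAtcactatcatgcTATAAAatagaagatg
Mmp7, chr9:7691970-7692089, plus strand: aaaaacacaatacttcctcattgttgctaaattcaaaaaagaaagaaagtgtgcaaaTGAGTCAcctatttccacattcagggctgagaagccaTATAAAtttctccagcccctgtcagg

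In these 6 promoters the first base of the AP-1 motif lay 35 bp (Mmp13) to 93 bp (Mmp1b) before the listed start, and 19 bp (Mmp13) to 45 bp (Mmp1a) before that of the TATA box. RefSeq listed 39 starts for 36 of the 51 genes, and their windows, from 250 bases before to 50 after the start, were searched on both strands. The AP-1 motif reads the same on both strands, and no motif searched contains another. The AP-1 motif was found in 8 of the 39 windows (20.5%), beside 6.99% of 21263 windows of protein-coding genes. All 8 belonged to the chromosome 9 cluster, to Mmp1a, Mmp1b, Mmp3, Mmp7, Mmp10, Mmp12, Mmp13 and Mmp20. None of these windows had a peak, while 0 of the 17 windows with a peak in both lists held the motif. Over all genes the motif was in 5.23% of windows with a peak in both lists and in 9.08% of windows with a peak in neither.

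The TATA box motif was found in 12 of the 39 windows (30.8%), beside 12.6% of all windows, with 2 of these 12 among the windows open in both lists. Outside the Mmp cluster it was found only in the windows of Adamts1, Adamtsl2 and Mmp21, so the high share came from the cluster. The ETS motif AGGAAG was in 16 windows (41%, beside 34.4%). The CCAAT box was in 10 (25.6%, beside 38.2%). The Runx motif TGTGGT was in 6 (15.4%, beside 15%). The cluster promoters were poor in G and C, with a median of 41.7% and a range of 37.7% to 52% over 12 windows. The median was 64.7% for the 17 windows of the 51 genes with a peak in both lists and 61% for all such windows. It was 49.3% for the 22 windows of the 51 genes with a peak in neither list and 49.7% for all of those. A motif match describes the letters of these windows only and does not show binding.

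The gelatinase genes differed from the cluster in having many peaks in both genotypes. Mmp2 encodes a gelatinase made constitutively by fibroblasts and had 15 peaks in KO and 14 in WT. Its strongest peak lay inside the gene, at chr8:92848970-92851057 in KO (percentile 98.2) and at chr8:92848951-92850777 in WT (97.6), and the peak at its lower end stood at percentile 73.7 in KO and 82.1 in WT. The 3 KO-only peaks lay 1167 to 2725 bp before the lower end of the gene, at percentiles 18.0, 6.17 and 6.99, and the 2 WT-only peaks lay inside it, at 8.66 and 22.2. A shared peak 12766 bp before the gene ranked at 47.5 in KO, against 0.188 in WT, where it was among the weakest of its list.

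Mmp9, the second gelatinase gene, which is better known from inflammatory cells, had no peak at either gene end in either list. Its window held 8 KO peaks, of which 2 were KO-only, and 7 WT peaks, of which 1 was WT-only. The highest was at percentile 73.3 in KO and 76.0 in WT. A peak inside the gene ranked at 43.4 in KO and 1.57 in WT. The stronger KO-only peak, at percentile 57.5, lay inside the neighbouring gene Slc12a5.

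The 6 membrane-type Mmp genes, whose products are anchored at the cell surface, together had 1 KO-only peak among 45 KO peaks and 8 WT-only peaks among 55 WT peaks. These shares, 2.22% and 14.5%, stand beside 12.2% and 18.5% in the windows of all genes. Mmp14, the main activator of the Mmp2 precursor, had 13 KO and 14 WT peaks. Its promoter lay in 1 KO peak at chr14:54430524-54433955 (percentile 97.8), which overlapped 3 WT peaks covering 54430559 to 54434060 at percentiles 88.5, 63.5 and 76.2. The same stretch was therefore open in both lists and was divided in WT. Its 1 KO-only peak, at percentile 4.49, lay 1711 bp before the gene. Its promoter sequence is given for comparison with the cluster, and its window held neither the AP-1 nor the TATA box motif.
Mmp14, chr14:54431478-54431597, plus strand: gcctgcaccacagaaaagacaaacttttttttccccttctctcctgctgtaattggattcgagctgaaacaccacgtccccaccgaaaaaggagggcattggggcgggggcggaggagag

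Mmp16, which encodes another membrane-type protease, had 5 KO and 8 WT peaks, 3 of them WT-only and 0 KO-only. The WT-only peak at chr4:18041066-18042121 had percentile 74.3, the highest of the 50, and the nearest KO peak was 58508 bp away. The other WT-only peaks of Mmp16 stood at 48.4 and 14.9. The gene-end peak of Mmp16 was strong in both lists, at percentile 94.4 in KO and 98.0 in WT. In its 10 Mb block KO had 77.0% of the WT peak number, so the excess at the gene cannot be told apart from a regional one. The whole KO list was also the shorter, with 98072 peaks against 106132 in WT. Mmp15 had 4 KO and 7 WT peaks with 2 WT-only, and Mmp25 had 7 and 9 with 1 WT-only. Mmp24 had 12 peaks in either list with 1 WT-only, and Mmp17 had 4 and 5 with 1 WT-only.

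Among the remaining Mmp genes, Mmp23 had 4 KO and 5 WT peaks, with 2 WT-only at percentiles 14.3 and 40.4. Its promoter stood at percentile 97.0 in KO and 99.7 in WT, and 2 KO peaks lay where WT had 1 peak from 155651453 to 155655715. Mmp28, the epilysin gene, had 14 peaks in either list, with 1 KO-only and 2 WT-only, and its promoter ranked at 88.5 in KO and 91.5 in WT. Mmp19 and Mmp11 had 0 genotype-only peaks. The gene-end peak of Mmp19 ranked at 59.2 in KO and 42.8 in WT, and the promoter peak of Mmp11, the stromelysin-3 gene, at 65.5 and 67.7.

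Adamts12 had the largest difference among the 51 genes. It encodes a protease that cleaves cartilage oligomeric matrix protein and lies on the plus strand at chr15:11064773-11349232, with no other gene in its window. The window held 19 KO peaks, of which 11 were KO-only, and 9 WT peaks, of which 0 were WT-only. A difference this far towards KO was found at 20 protein-coding genes, 0.0914% of all. The share is over genes of any length and peak number, and a long window can hold a larger difference than a short one. The KO-only peaks were mostly weak, at percentiles 0.286 to 62.5 with a median of 8.45, and 2 of them lay in the upper 50% of the list. Inside the gene lay 9 of them, the highest at chr15:11173925-11174362 (62.5), chr15:11312469-11313201 (55.9) and chr15:11186937-11187577 (40.4), and 2 lay 3564 and 10302 bp before the start.

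The peaks of Adamts12 that both lists had in common also mostly ranked higher in KO. Of 7 peaks that matched 1 to 1, 6 had the higher percentile in KO (beside 40.7% of all matched peaks of the lists), with a median difference (KO minus WT) of 12.2. The largest was at chr15:11210652-11211719 in KO, at percentile 77.9, against a WT peak at chr15:11211116-11211299 at percentile 11.9. The KO peak was 1068 bp wide and the WT peak 184 bp. Because the signal grows with length, a difference in rank cannot be told apart from one in width here. The strongest, inside the gene, stood at 97.4 in KO and 90.0 in WT. The promoter lay in 1 KO peak at chr15:11064035-11066263 with percentile 95.7, which overlapped 2 WT peaks with percentiles 79.7 and 29.2. A divided peak ranks lower for the same reason. In the 1 Mb on either side of the window there were 23 KO-only among 140 KO peaks and 24 WT-only among 142 WT peaks. In the 10 Mb block KO had 97.4% of the WT peak number, where the whole lists held 98072 KO and 106132 WT peaks. Whether the excess at Adamts12 was part of a regional one was not tested. The promoter sequence is rich in G and C, at 65.8%, and its window held neither the AP-1 nor the TATA box motif.
Adamts12, chr15:11064653-11064772, plus strand: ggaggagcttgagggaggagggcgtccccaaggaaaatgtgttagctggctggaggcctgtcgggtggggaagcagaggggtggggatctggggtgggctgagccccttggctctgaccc

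The excess of KO-only peaks at Adamts12 depended on weak peaks. It was 4 with the stricter threshold, 2 in the upper 50% by signal and 6 in lists of equal length. Adamts7, which cleaves the same substrate, had 7 KO peaks with 0 KO-only and 8 WT peaks with 1 WT-only, and its gene-end peak ranked at 92.3 in KO and 96.7 in WT.

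The proteoglycan-cleaving enzymes, 7 genes, had 5 KO-only peaks among 45 KO peaks (11.1%) and 8 WT-only peaks among 48 WT peaks (16.7%), close to the shares in all gene windows. Adamts1 encodes an aggrecan- and versican-cleaving enzyme and had the strongest promoter peak of the 51 genes, at chr16:85800671-85803854 in KO and chr16:85800668-85803804 in WT, at percentile 99.8 in both lists. Its promoter holds a TATA box motif 32 bp before the listed start and no AP-1 motif, and is shown with the TATA box in capitals.
Adamts1, chr16:85803114-85803233, minus strand: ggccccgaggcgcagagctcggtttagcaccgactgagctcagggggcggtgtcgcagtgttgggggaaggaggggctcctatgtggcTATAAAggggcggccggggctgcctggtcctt

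Adamts4 and Adamts5 encode the main aggrecan-cleaving enzymes of cartilage. Adamts4 had 11 KO peaks with 2 KO-only and 12 WT peaks with 3 WT-only, and its gene-end peak ranked at 82.2 in KO and 82.6 in WT. Adamts5 had 2 KO peaks and 4 WT peaks, of which 2 were WT-only at percentiles 2.39 and 2.02, and its gene-end peak ranked at 92.9 in KO and 97.3 in WT. Adamts9, a versican-cleaving enzyme gene, had 11 KO peaks with 2 KO-only and 10 WT peaks with 1 WT-only. Its strongest peak ranked at 96.2 in KO and 94.5 in WT. Adamts8 had 10 peaks in either list and 0 genotype-only, and its gene-end peak ranked at 30.3 in KO and 59.5 in WT, the lowest of the KO values at open gene starts or ends of the 51 genes.

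The procollagen N-proteinase genes Adamts2, Adamts3 and Adamts14, whose products trim fibrillar procollagens, had 2 KO-only peaks among 31 KO peaks (6.45%) and 4 WT-only peaks among 36 WT peaks (11.1%). Adamts2 was among the genes with most peaks, 22 in KO and 25 in WT. Its promoter ranked at 93.5 in KO and 96.0 in WT. A KO-only peak inside the gene at chr11:50704329-50704963 had percentile 66.1, and a WT-only peak at chr11:50712374-50712598 had percentile 44.2. Adamts14 had 8 KO and 9 WT peaks, 0 of them genotype-only, and a promoter peak at percentile 99.0 in KO and 93.8 in WT. Adamts3 had 1 KO peak and 2 WT peaks, none of them at the promoter.

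Of the other Adamts genes, Adamts16 had 22 KO peaks with 2 KO-only and 23 WT peaks with 4 WT-only, without a peak at either gene end. Its difference of 2 towards WT turned to 4 towards KO in lists of equal length and to 1 towards KO in the upper 50% by signal. The KO-only peak at chr13:70757957-70758685 had percentile 56.7, while the WT-only peaks reached 28.6. Adamts10, which encodes a fibrillin-associated protease, had 6 KO peaks with 2 KO-only, at percentiles 3.92 and 19.6, and 4 WT peaks with 0 WT-only. With the stricter threshold Adamts10 had 0 KO-only and 1 WT-only peak. Adamts13, the gene of the enzyme that cleaves von Willebrand factor and a product mainly of the liver, had 1 KO-only peak and no promoter peak in either list.

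Adamtsl1 showed the reverse picture of Adamts12. It is among the Adamtsl genes, whose products bind matrix but do not cleave it, and spans 914.5 kb at chr4:85513852-86428390. Its window held 10 KO peaks with 0 KO-only and 17 WT peaks with 8 WT-only. A difference this far towards WT was found at 111 protein-coding genes, 0.507% of all. This share too is not matched for gene length or peak number, and a gene this long has more room for a large difference. All 8 WT-only peaks were intragenic, at percentiles 7.31 to 72.1 with a median of 40.2, the highest at chr4:85957186-85957825 (72.1), chr4:86316966-86317450 (64.6) and chr4:86030073-86030676 (52.3). The nearest KO peak was 61180, 122312 and 5238 bp away from these, in that order. Saxo1, the other gene in the window, was the site of 0 genotype-only peaks.

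Shared peaks of Adamtsl1 ranked lower in KO as well. Of 8 peaks that matched 1 to 1, 8 had the lower percentile in KO, by differences of -29.6 to -15.7 with a median of -25.4. Over all 75840 matched peaks of the lists, 40.7% ranked higher in KO. Other genes were 1-sided too: all 4 matched peaks of Mmp15 and all 4 of Adamts10 ranked lower in KO, and all 5 of Mmp19 and all 5 of Adamtsl2 higher. The strongest, inside the gene, stood at 60.2 in KO (chr4:86040847-86041489) and at 86.6 in WT (chr4:86040808-86041707). No peak of either list lay within 1 kb of either gene end. In the 1 Mb on either side of the window there were 4 KO-only among 72 KO peaks and 18 WT-only among 79 WT peaks. In the 10 Mb block KO had 84.2% of the WT peak number, where the whole lists held 98072 KO and 106132 WT peaks. The excess at Adamtsl1 therefore cannot be told apart from a regional one.

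**Figure D3:**
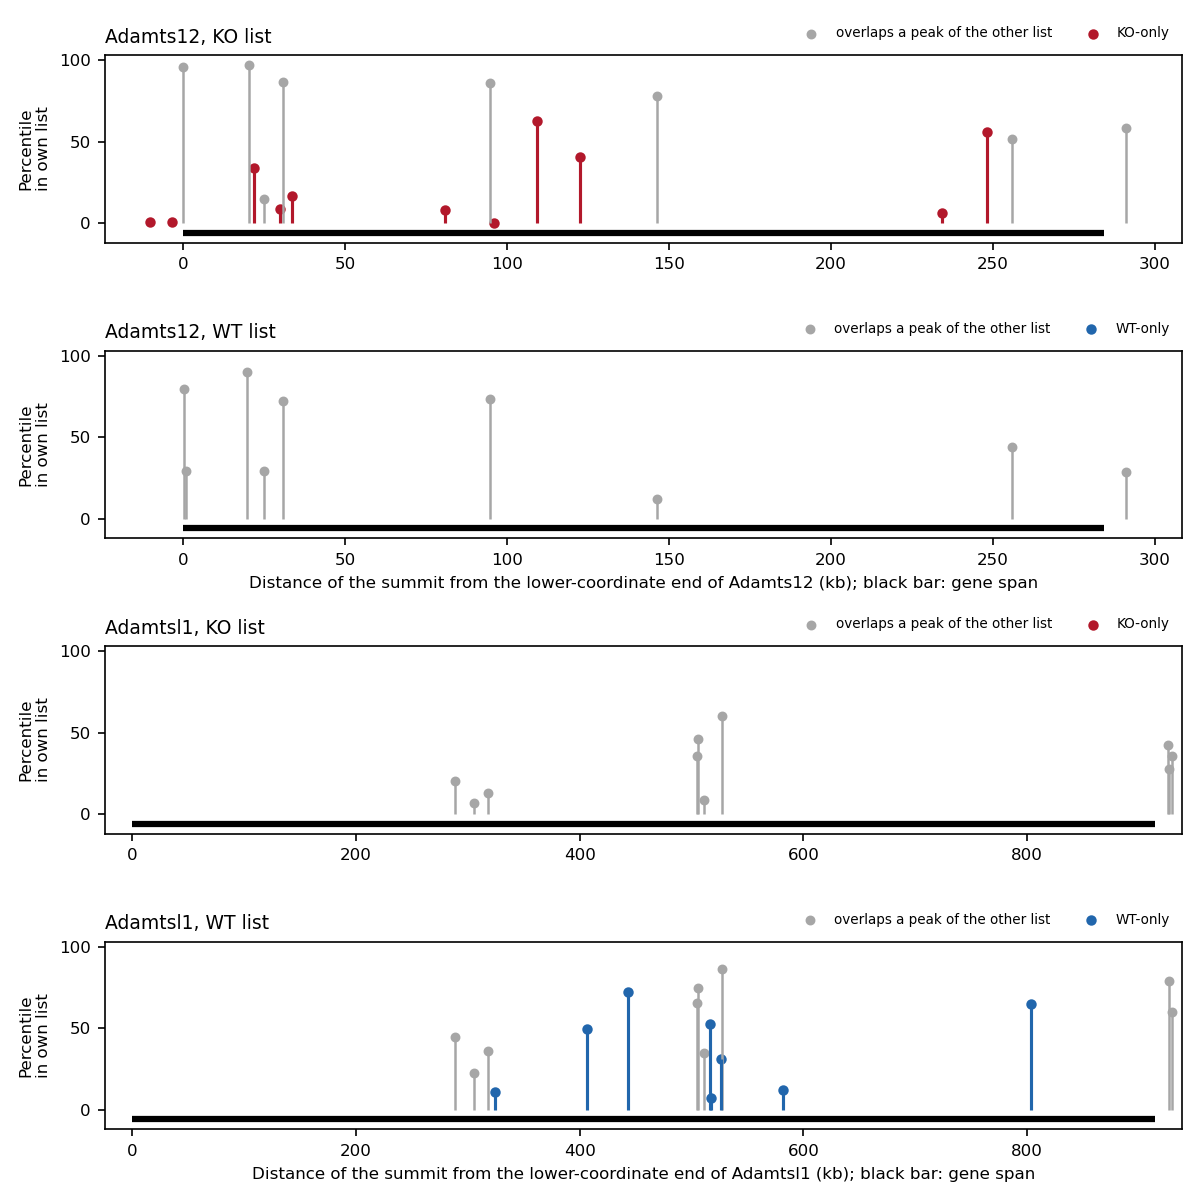
Signal percentile of each peak within its own list (vertical axis) by distance of its summit from the lower end of the gene (horizontal axis, kb), for Adamts12 (upper panels) and Adamtsl1 (lower panels), KO above WT, with the gene as a black bar. KO-only peaks (red, 11) spread over Adamts12, and WT-only peaks (blue, 8) over the interior of Adamtsl1, where the shared peaks (grey) stand lower in KO than in WT.

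Adamtsl3 had 22 KO peaks with 4 KO-only and 18 WT peaks with 1 WT-only. The KO-only peaks inside the gene included chr7:82371372-82371893 at percentile 68.4, the highest of the 47, and chr7:82386789-82387706 at 54.1. The other KO-only peaks were at 9.55 and 11.9, and the WT-only peak was at 36.4. Shared peaks differed in rank at chr7:82533354-82534809, with 84.0 in KO and 25.02 in WT, and before the gene at chr7:82315091-82315927, with 71.5 in KO and 6.21 in WT. The strongest peak, inside the gene, stood at 96.8 in KO and 94.3 in WT. The rank differences of Adamtsl3 did not all go 1 way, since 7 of its 16 matched peaks were higher in KO and 9 in WT.

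Adamtsl4, a fibrillin-binding protein gene, had 20 KO peaks with 3 KO-only and 18 WT peaks with 3 WT-only, and its promoter ranked at 94.3 in KO and 94.7 in WT. Several of its peaks lay near Mcl1, the neighbouring gene. Adamtsl2, also a fibrillin-binding protein gene, had 6 KO peaks with 1 KO-only and 5 WT peaks, and its promoter ranked at 68.8 in KO and 57.7 in WT. All 5 matched peaks of Adamtsl2 had the higher percentile in KO, beside 40.7% of all matched peaks of the lists.

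The inhibitor genes had 6 KO-only peaks among 45 KO peaks and 1 WT-only peak among 40 WT peaks. The shares were 13.3% and 2.5%, beside 12.2% and 18.5% in the windows of all genes, so the KO share was near the background and the WT share rests on 1 peak. With the stricter threshold the differences of Timp1 and Timp3 were both 0. Of the inhibitor genes, Timp1, Timp3 and Timp4 lie in or beside the synapsin genes Syn1, Syn3 and Syn2, so a peak in their windows may belong to either gene. Timp1 encodes a secreted, inducible inhibitor, lies on chromosome X, and had 8 KO peaks and 4 WT peaks. Its promoter peak ranked at 96.6 in KO and 99.5 in WT. The KO peaks at chrX:20866969-20868574 (percentile 85.1) and chrX:20868691-20870688 (96.6) lay where WT had 1 peak, at chrX:20867194-20870720, so the larger KO number came in part from this division.

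The 2 KO-only peaks of Timp1 were weak, at percentile 9.99 inside the gene and 18.2 inside Syn1. The flanks went the other way: the 1 Mb on either side held 3 KO-only and 30 WT-only peaks, and KO had 64.3% of the WT peak number in the 10 Mb block. The whole lists held 98072 KO and 106132 WT peaks. Timp2, the inhibitor that takes part in the activation of Mmp2 by Mmp14, was among the genes with most peaks, 20 in KO and 19 in WT. Its promoter ranked at 97.6 in KO and 98.6 in WT, and its strongest peak at 99.6 and 99.4. The 1 KO-only peak of Timp2 was at percentile 7.5.

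Timp3, the inhibitor that is bound to matrix and blocks ADAMTS enzymes, had 13 KO peaks with 3 KO-only and 12 WT peaks with 1 WT-only. Its promoter ranked at 89.4 in KO and 82.6 in WT. Of the KO-only peaks, those at chr10:86280335-86280837 (50.3) and chr10:86281190-86281697 (32.8) lay inside Syn3, 19757 and 19038 bp before the start of Timp3. The other was inside Timp3 at 28.0, and the WT-only peak at 3.40. Timp4 had 4 KO and 5 WT peaks, all of them shared and outside the gene, and no promoter peak in either list.

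With the promoter windows used, none of the 51 genes had a promoter peak in 1 list only. For the 15 genes without a listed start, a peak overlapping the 1 kb around either gene end was used, which includes the 3′ end. A peak was found in both lists at 26 of the 51 genes (beside 52.9% of all genes) and in neither list at 25 (beside 44.3% of all genes). It was found in KO only at 0 (beside 0.937% of all genes) and in WT only at 0 (beside 1.85%). Such calls were rare among all genes, so 0 among 51 says little about these genes. With the stricter summit threshold there were 2 (Mmp11 and Mmp19, KO only), and with 1 kb around the start 1 (Mmp27, WT only). Open in both lists were 8 of 23 Mmp, 12 of 19 Adamts, 3 of 5 Adamtsl and 3 of 4 Timp genes. By a listed start 16 of 36 genes were open in both lists, and by gene ends, which cover more bases, 10 of 15. Among all genes 17492 had a listed start and 4395 were called by gene ends. The families differ in how many genes were called by gene ends. Differences between them, and from all genes, therefore cannot be told apart from an effect of the window. Among the 26 genes the percentile of this peak ran from 30.3 to 99.8 in KO, with a median of 88.9, and from 42.8 to 99.8 in WT, with a median of 85.2. It was higher in KO at 10 genes and in WT at 16, beside 3941 and 7631 of the 11572 protein-coding genes open in both lists.

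**Figure D4:**
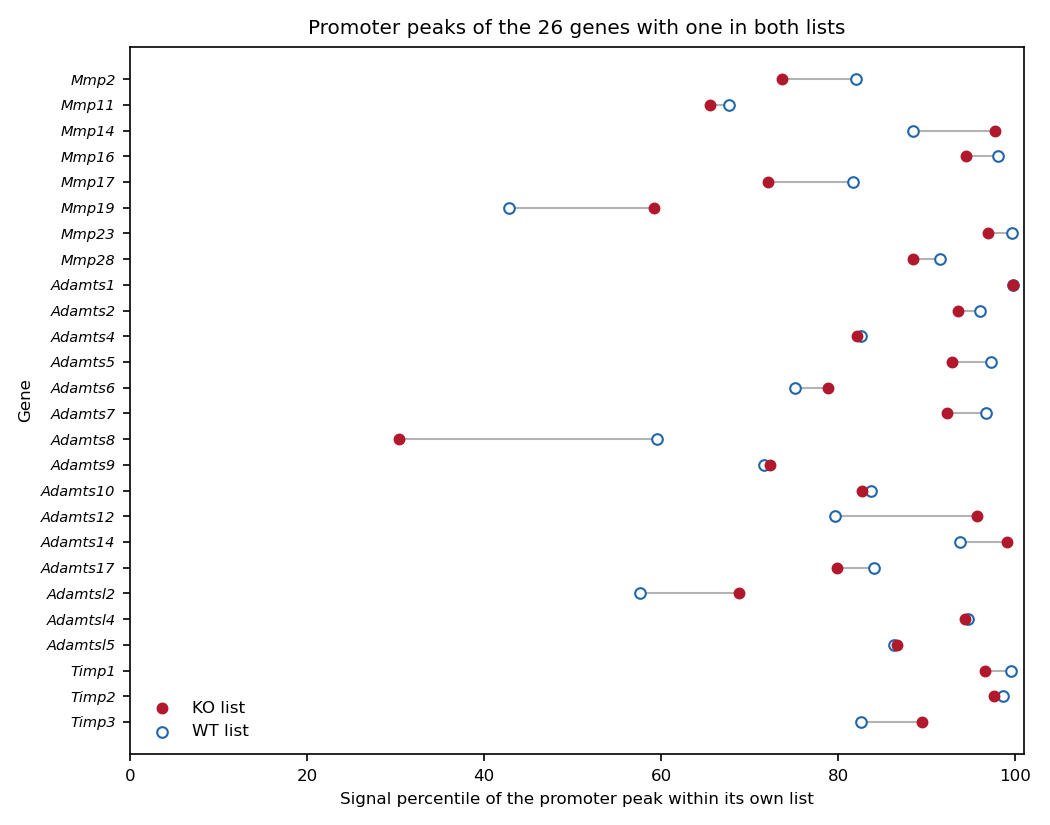
Signal percentile, within its own list, of the promoter or gene-end peak of the 26 genes with such a peak in both lists, KO as filled red circles and WT as open blue circles. Most pairs lie close together above 60, and the widest gaps are at Adamts8 (30.3 in KO, 59.5 in WT), Mmp19 (59.2 and 42.8) and Adamts12 (95.7 and 79.7). The promoter peak of Adamts12 was divided in WT, and a divided peak ranks lower.

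Matched peaks of the 51 genes mostly held their rank. In all windows 290 KO peaks matched 1 WT peak each, and for 215 of them (74.1%) the summits lay within 50 bp of each other. The median percentile difference (KO minus WT) was -0.92, with quartiles of -7.06 and 4.43. The KO percentile was the higher at 125 (43.1%), beside 40.7% of all 75840 matched peaks of the lists. At 42 (14.5%, beside 16.9% of all) the difference exceeded 20 points, 20 of them higher in KO and 22 lower.

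**Figure D5:**
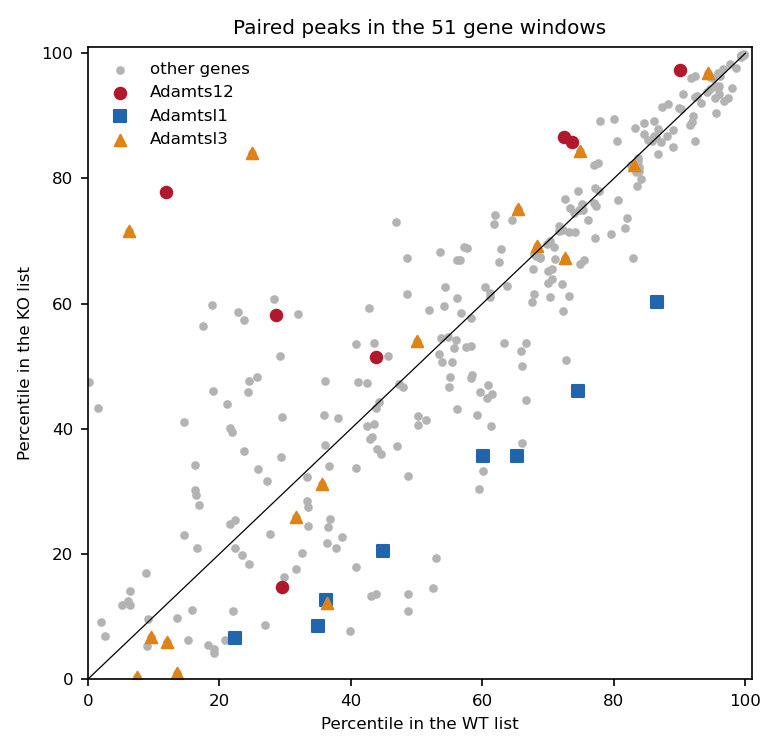
Signal percentile in the KO list (vertical axis) against that in the WT list (horizontal axis) for the 290 matched peaks in the 51 gene windows, with the line of equal rank. Peaks of Adamts12 (red circles) lie above the line in 6 of 7 cases, those of Adamtsl1 (blue squares) below it in 8 of 8, and those of Adamtsl3 (orange triangles) on both sides.

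Other genes of matrix proteolysis, a list of 40 activators, anchors, inhibitors and related proteases, were counted in the same way. Promoters were open in both lists at 26 of the 40 (beside 52.9% of all genes) and in neither at 13 (beside 44.3%). They were open in KO only at 0 (beside 0.937%) and in WT only at 1 (beside 1.85%), Tll2, a procollagen C-proteinase relative (percentile 49.1). More KO-only peaks were found at 5 genes (12.5%, beside 19.2% of all genes) and more WT-only peaks at 27 (67.5%, beside 37.4%), with a median difference of -1, beside a median of 0 for the 51 genes and for all genes. At least 2 towards KO was reached by 3 genes (7.5%, beside 7.54% of all genes): Adam12, a cell-surface disintegrin protease gene (10 KO-only, 2 WT-only), Bmp1, the procollagen C-proteinase gene (7 and 0), and Adam19 (4 and 0). At least 2 towards WT was reached by 14 genes (35%, beside 18.4%), led by Tll1, a Bmp1 relative (0 KO-only, 9 WT-only), the hyaluronan receptor gene Cd44 (1 and 8) and the sheddase gene Adam10 (0 and 5). The promoter of Furin, whose product activates membrane-type Mmp precursors, had a peak at percentile 16.8 in KO and 91.8 in WT, and that of Tll1 at 61.0 and 99.5. Furin had 13 KO peaks with 0 KO-only and 11 WT peaks with 1 WT-only, and Tll1 had 4 KO peaks, all shared. More than 1 KO peak may therefore lie where WT had 1 peak. Whether this was so at these promoters was not examined, and a divided peak ranks lower because the signal grows with length.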

How the data were processed

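The authors deposited 1 peak list per genotype, covering 3 libraries each, and per the submitters' processing notes used Bowtie2 2.5.1, Genrich, deepTools 3.5.1 and build GRCm38. How libraries were combined, any Tn5 shift, and Genrich's version and settings are not given in the sources used here. For each peak the authors deposited a score (not used), a signal above a minimum of 200 that is not scaled between lists (used as a percentile within its list), the −log10 of the summit p (used as an alternative threshold) and the summit. The deposited lists hold no read totals, so depth is unknown and no p-value was computed.

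Gene spans and promoter sequences were those of RefSeq GRCm38.p6. Promoter peaks overlapped 250 bases before to 50 after a listed start (36 genes), or lay within 1 kb of either gene end (15 genes). Overlaps were computed with Python 3.11.15, numpy 2.4.6 and pandas 2.3.3, intervals with scipy 1.17.1, figures with matplotlib 3.10.9, and the overlap code was checked against bedtools 2.31.1 on simulated lists. The genes named were the Timp genes, those with a net of at least 2 genotype-only peaks (up to 8 per direction), the 5 with most peaks, a list of fibroblast proteases, and those without a peak. Others were named after their values were seen, to complete an enzyme class. Enzyme classes are a textbook grouping. Members and lists were chosen with earlier results of these data known. A planned search for AP-1 motifs in peaks was not run, for want of a genome sequence. The result of 1 marker list is not reported here.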

Additional observations from a re-analysis of the deposited data

How the results depend on the processing

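The counts of genotype-only peaks depended on what counts as shared and on the peaks admitted. Against 47 KO-only and 50 WT-only peaks, a reciprocal overlap of 50% gave 91 and 92, a stricter summit threshold 26 and 29, the upper 50% by signal 8 and 5, the gene span alone 23 and 31, lists of equal length 47 and 32, and windows of 50 kb beyond either end 67 and 76. The shared part, 87.5% of KO and 86.8% of WT peaks, became 75.7% and 75.7% with the reciprocal overlap, 91.2% and 90.2% when a peak within 1 kb counted as shared, and 96.2% and 97.6% in the upper 50%. The number of genes with a promoter peak in 1 list only, 0 with the promoter windows used, was 2 with the stricter threshold (Mmp11 and Mmp19, KO only) and 1 with 1 kb around the start (Mmp27, WT only). Leaving out the windows of Adamts12 and Adamtsl1, chosen after seeing the data, gave 36 and 42 genotype-only peaks. Of 192 differences (KO-only minus WT-only) for 24 named genes under 8 alternatives, 165 did not take the opposite sign (0 included) and stayed within the exact binomial 95% interval of the gene's own counts. That interval is wide for genes with few genotype-only peaks. A fall from 2 to 0, as at Timp1 with the stricter threshold, lies within it, so the 165 do not show stability. Of the rest, 13 left the interval without a change of sign and 14, at 8 genes, changed sign. These were Adamts10 (-1), Adamts2 (1), Adamts4 (1), Mmp2 (-1) and Timp2 (-1) with the stricter threshold, Adamts16 (1) and Adamts2 (1) in the upper 50%, Adamts16 (4), Adamts2 (2), Adamts4 (1) and Mmp14 (-1) in lists of equal length, Mmp14 (-1) with the reciprocal overlap, Mmp2 (-2) for the gene span, and Mmp9 (-1) with 50 kb. Of the 11 genes with a difference of at least 2, only Adamts12 (2 to 12), Adamtsl1 (-8 to -3) and Adamtsl3 (2 to 4) kept one that large in the same direction under all 8. It was 0 at 5 of the 11 with the stricter threshold (Adamts5, Mmp15, Mmp23, Timp1, Timp3), at 5 in the upper 50% (Adamts5, Adamts10, Mmp15, Mmp23, Timp1), at 4 in lists of equal length (Adamts5, Adamts10, Mmp15, Timp1), at 5 for the gene span (Adamts10, Adamts16, Mmp15, Mmp23, Timp3) and at 1 with 50 kb (Timp3). The cause of these shifts was not tested. No paired analysis was possible because each genotype has 1 combined peak list, and for the same reason no library could be left out.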
